A study of Mus musculus with 12 samples.

Results

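The subunits of Eif3, the largest of the translation initiation factors, were followed in mid-2-cell mouse embryos after knockdown of Oct4 or of cyclin A2. The 10 subunits listed were Eif3a, Eif3b, Eif3c, Eif3d, Eif3e, Eif3f, Eif3g, Eif3h, Eif3i and Eif3m. All probe sets, the groups of short probes that report 1 transcript each, were taken whose platform annotation gave 1 of these symbols and no other. This gave 23 of 44937 probe sets, for 9 of the 10 subunits out of 18163 genes with a probe set. Eif3g had none under its own symbol. The brightest probe set of a gene stood for it and the others served as a check. Of the 23, 18 belonged to the brighter part of the array, the probe sets at or above the median of mean signal, and all 9 brightest ones were among them.

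Eif3 binds the small ribosomal subunit and helps to bring the initiator tRNA and the messenger RNA to it, so that scanning for the start codon can begin. In mammals its scaffold is an octamer of subunits that carry PCI or MPN domains, folds shared with the lid of the proteasome and with the COP9 signalosome, a complex that removes Nedd8 from cullins. A separate module of Eif3b, Eif3g and Eif3i is attached through Eif3a, and Eif3d is attached through Eif3e. In the early mouse embryo protein synthesis draws at first on RNA stored in the egg, and the embryo's own genome becomes broadly active at the 2-cell stage.

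There were 4 groups with 3 arrays each. Oct4-MO embryos received 0.6 mM of an antisense morpholino (MO) against the translation start of Oct4, the transcription factor encoded by Pou5f1. Ccna2-MO embryos received, by the labels, 0.6 mM of a morpholino against Ccna2, which encodes cyclin A2, while the methods of the study give a higher dose for it. Each injected group had its own uninjected embryos, drawn from the same embryo pools and cultured beside them. All embryos came from superovulated F1 (C57BL6xDBA/2) females 3 to 5 weeks old mated with wild type males, with 3 to 6 females to a pool. Morpholinos were placed in the cytoplasm at the 1-cell stage, and the RNA of 20 pooled embryos, the equivalent of 10 of them amplified in 2 rounds, went onto each array. No array held embryos injected with a mismatch morpholino, so knockdown and injection cannot be told apart against uninjected embryos. In the study the cyclin A2 arrays served as the control for injection and for morpholino in the cytoplasm. The contrast of the 2 knockdowns is given below. The labels do not say whether the pools were made on separate days, so the p-values measure the spread between these pools. Fewer cells and less RNA per embryo cannot be told apart either.

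Values are the intensities the authors deposited, analysed as log2(value + 16), and a fold change on this scale understates the change of a dim probe set. Mean values per array ran from 172.9 to 206.9, and the lowest of them were those of Oct4-MO replicates 2 and 3, 172.9 and 181.2. A morpholino blocks translation and need not lower its target's transcript, and Pou5f1 read 1830 to 2470 in Oct4-MO embryos and 1800 to 2110 in uninjected embryos. Ccna2 read 3180 to 4400 in Ccna2-MO embryos and 3440 to 4220 in uninjected embryos. Of 9 egg transcripts all were measured, and 8 of them, such as Bmp15 and Zp3, read above 50 on every array. Among cumulus cell markers Fshr read below 6 on every array, while Amhr2 (187.2 to 989.3) and Cyp11a1 (12.5 to 442.1) were not at background. The summed cumulus markers were 606.8 to 842.6 in Oct4-MO embryos and 628.0 to 703.9 in uninjected embryos, and 601.4 to 1391 in Ccna2-MO embryos and 637.4 to 1126 in uninjected embryos. These sums hide opposite directions, since mean Cyp11a1 was 330.7 in Oct4-MO embryos and 130.7 in uninjected embryos, and 215.9 in Ccna2-MO embryos and 82 in uninjected embryos. Mean Amhr2 was 305.4 in Oct4-MO embryos and 418.7 in uninjected embryos, and 573 in Ccna2-MO embryos and 707 in uninjected embryos. The part of these values in the Eif3 results was not tested.

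In Oct4-MO embryos the transcripts of most Eif3 subunits were lower than in uninjected embryos, Eif3e most of all. Of the 9 measured subunits, 8 lay below 0, as did 51.8% of genes in the brighter part, and Eif3i lay above 0, with a median log2 fold change of -0.92, against -0.02 over the 11417 genes whose brightest probe set belonged to the brighter part. Eif3e was the 1 subunit called lower at an adjusted p under 0.05, by limma with Benjamini-Hochberg adjustment over all probe sets, where 0.0445% of all probe sets were called lower. At an unadjusted p under 0.05, 8 of the 9 were lower, beside 5.09% of all probe sets and 8.64% of genes in the brighter part. In 5 of the 9 (Eif3c, Eif3d, Eif3e, Eif3f and Eif3h) every Oct4-MO array read below every uninjected array, beside 12.5% of genes in the brighter part. Within the 3 same-numbered pairs, which share an embryo pool, the injected pool was the lower in all 3 for 8 of the 9 and in 0 for Eif3i. No share over all genes was computed for the pairs, so this count has nothing to be set against. The study itself named Eif3 subunits from these arrays, so their direction here is not independent evidence. Apart from the arrays, the study assayed subunits such as Eif3b, Eif3c and Eif3e by quantitative PCR of single embryos. There it reports that most of the measured genes changed in the expected direction, many of them significantly. A control morpholino against human globin is reported to have changed none of the assayed genes. The study proposes that Oct4 maintains the expression of genes such as Eif3c and Eif3b.

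**Figure D1:**
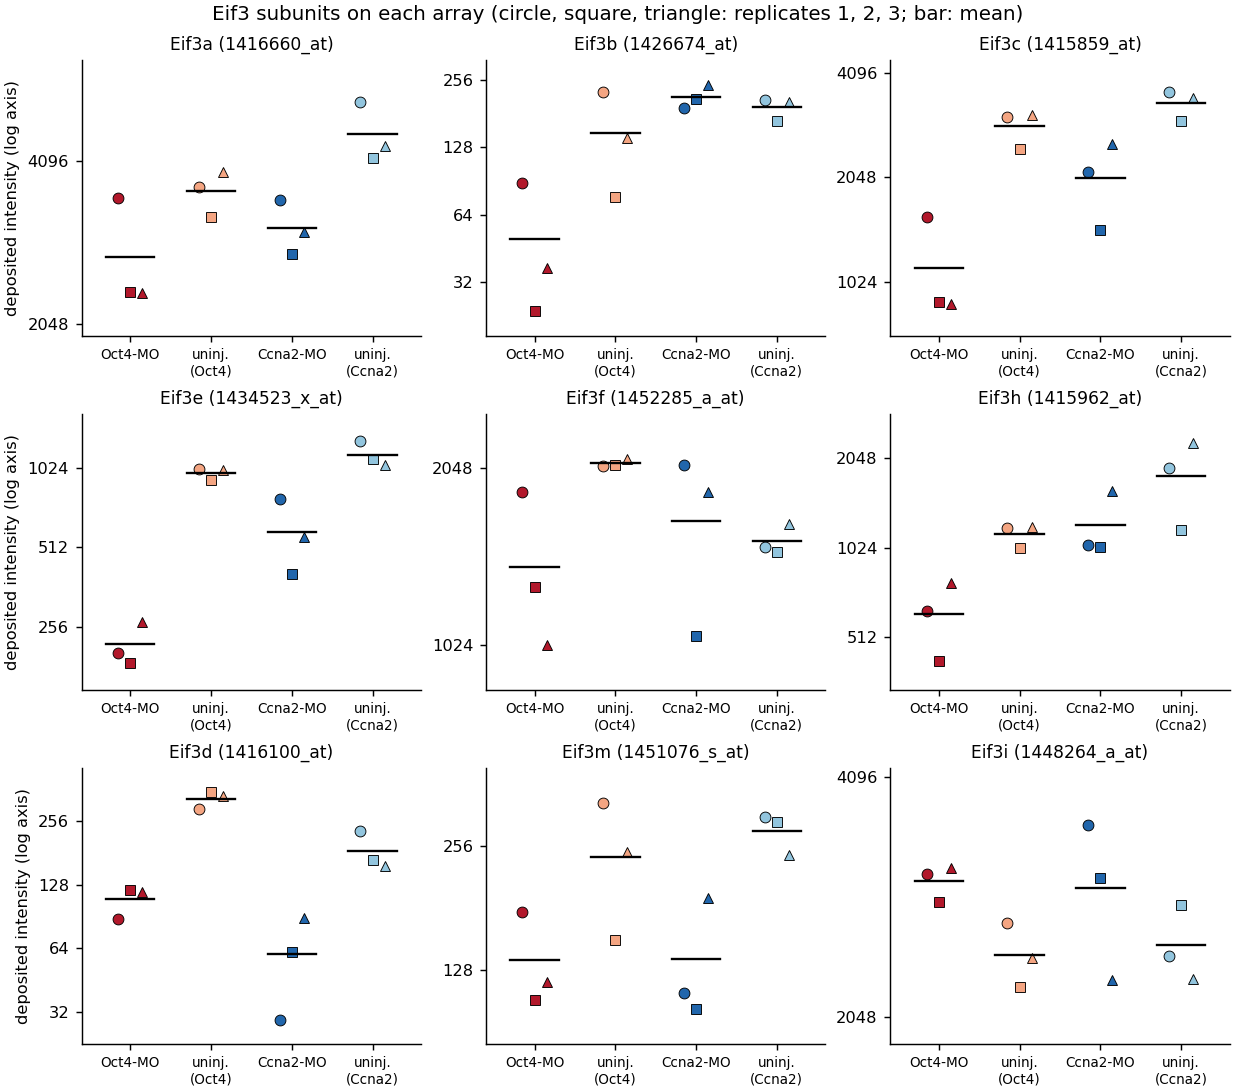
Deposited intensity (log axis) of the brightest probe set of 9 Eif3 subunits on each of 12 arrays, with Oct4-MO, its uninjected embryos (uninj. (Oct4)), Ccna2-MO and its uninjected embryos (uninj. (Ccna2)) from left to right, a marker per replicate and a bar at the mean. Eif3e sits at 187 to 267 in Oct4-MO embryos and 920 to 1013 in uninjected embryos, while Eif3i is the 1 subunit whose Oct4-MO arrays all read above the uninjected ones.

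Eif3a (probe set 1416660_at), the largest subunit and the one on which the others assemble, read 3498, 2343 and 2333 in Oct4-MO embryos and 3667, 3234 and 3908 in uninjected embryos. The groups overlapped through Oct4-MO replicate 1, although each injected pool read below the uninjected pool of its own number. The log2 fold change was -0.42 (standard error, SE, 0.16; adjusted p = 0.41), and the other 3 probe sets of Eif3a gave -0.47, -0.48 and -0.90 without passing.

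Eif3c (1415859_at), the other large PCI subunit, which contacts Eif1 and Eif5, read 1574, 898 and 884 in Oct4-MO embryos and 3064, 2464 and 3091 in uninjected embryos. All 3 injected pools lay below all 3 uninjected pools, with replicate 1 again the highest of the injected ones. The log2 fold change was -1.39 (SE 0.23, 95% interval -1.90 to -0.89), or 38.1% of the uninjected level, and missed the threshold (adjusted p = 0.063 from limma). All 4 probe sets of Eif3c behaved alike, at -1.39 to -1.60 with adjusted p of 0.063 to 0.09 and no overlap in any.

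Eif3b (1426674_at), an RNA-binding subunit that holds Eif3i and Eif3g in the complex, was dim and uneven. It read 88.6, 23.8 and 36.9 in Oct4-MO embryos and 226, 76.9 and 140 in uninjected embryos, so that the highest injected pool exceeded the lowest uninjected one of another number, while all 3 pairs were lower. Its log2 fold change of -1.33 (SE 0.40) did not pass (adjusted p = 0.28).

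Eif3e (1434523_x_at), a PCI subunit also known as Int6, a site where mouse mammary tumour virus inserts, fell in Oct4-MO embryos. It read 203, 187 and 267 in Oct4-MO embryos, against 1013, 920 and 999 in uninjected embryos. The gap between the groups was larger than the spread within either. The log2 fold change was -2.09 (SE 0.23, 95% interval -2.59 to -1.59, adjusted p = 0.017 from limma), or 23.4% of the uninjected level. A further 2 probe sets of Eif3e also fell, 1439268_x_at with a log2 fold change of -2.13 (adjusted p = 0.012) and 1460432_a_at with -1.76 (adjusted p = 0.039). By p, 1439268_x_at ranked at 1, the brightest at 2 and 1460432_a_at at 20 among all probe sets. These were the 3 of 23 probe sets called. All 3 carry a suffix, _x_at or _a_at, that marks probes that can match other transcripts. The 4th, 1419822_at, read below 11 on every array and carried no usable signal. With the embryo pool as a block 2 of them were called, each at an adjusted p of 0.0496, and 1460432_a_at was not (adjusted p = 0.078). The call on the brightest was lost without Oct4-MO replicate 2 (adjusted p = 0.0521), without uninjected replicate 1 (adjusted p = 0.143) or 3 (adjusted p = 0.128), and when only the 6 arrays of this comparison entered the fit (adjusted p = 0.072). Over the 12 fits that each left out 1 array, the brightest was called in 9, 1439268_x_at in 10 and 1460432_a_at in 4 (adjusted p up to 0.22).

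Eif3f and Eif3h, the MPN-domain pair of the complex, were lower without passing. Eif3h (1415962_at) read 627, 426 and 781 in Oct4-MO embryos and 1198, 1019 and 1204 in uninjected embryos, with no overlap and a log2 fold change of -0.92 (SE 0.27, adjusted p = 0.27). Its other 2 probe sets read below 37 on 11 of the 12 arrays and reached 166 and 203 on Oct4-MO replicate 1 alone. Eif3f (1452285_a_at) read 1864, 1285 and 1026 in Oct4-MO embryos and 2059, 2070 and 2117 in uninjected embryos. The uninjected pools of Eif3f lay close together and the injected ones far apart, and its log2 fold change was -0.62 (SE 0.24, adjusted p = 0.44).

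Eif3d (1416100_at), which binds the cap of particular messenger RNAs in human cells, read 88.0, 121 and 119 in Oct4-MO embryos and 294, 352 and 340 in uninjected embryos. The groups did not overlap, and here replicate 1 was the lowest of the injected pools. Its log2 fold change was -1.47 (SE 0.32, adjusted p = 0.13). The probe set was dim, with a mean log2 value of 7.30 beside 7.18 for Eif3b. The other probe set of Eif3d, 1446997_at, lay in the dimmer part of the array (5.31) and gave -0.45 with overlap. Eif3m (1451076_s_at), a PCI subunit of the octamer, read 177, 108 and 120 in Oct4-MO embryos and 326, 151 and 248 in uninjected embryos, with overlap between groups but lower values in all 3 pairs, and a log2 fold change of -0.74 (SE 0.33, adjusted p = 0.51).

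Eif3i (1448264_a_at), a WD-repeat subunit of the module with Eif3b, ran the other way. It read 3093, 2857 and 3150 in Oct4-MO embryos and 2685, 2232 and 2425 in uninjected embryos. Every injected pool lay above every uninjected pool, as it did in 10.3% of genes in the brighter part, and the log2 fold change of 0.31 (SE 0.15, 95% interval -0.01 to 0.63) did not pass (adjusted p = 0.55). The second probe set of Eif3i gave 0.12 with overlap.

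**Figure D2:**
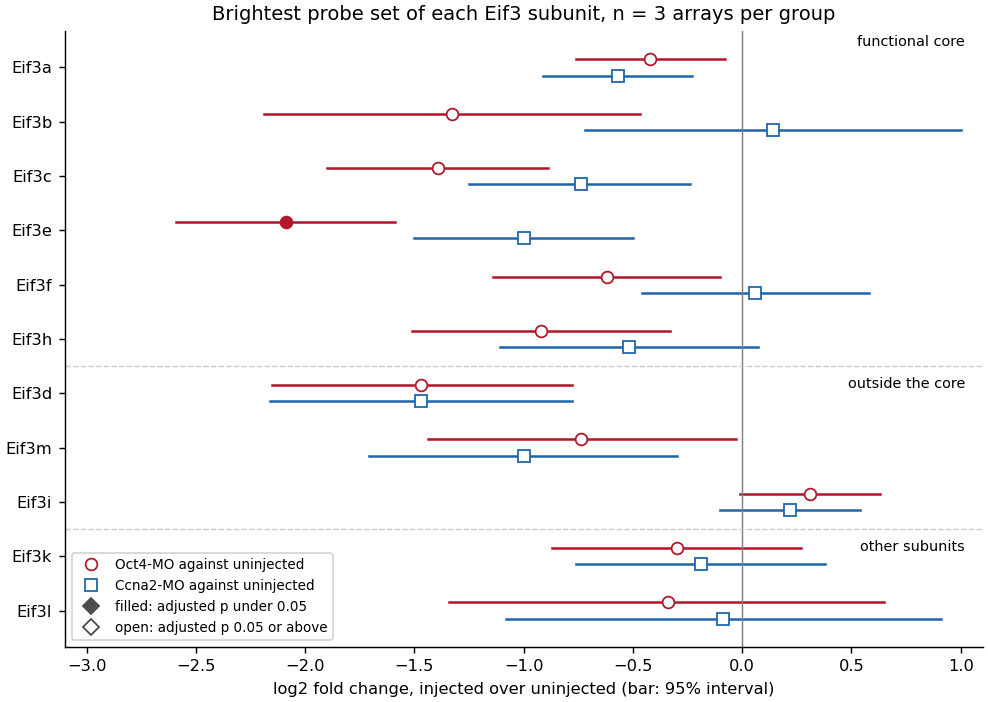
Log2 fold change (x axis, bar for the 95% interval) of the brightest probe set of 11 Eif3 subunits in Oct4-MO (circles) and Ccna2-MO embryos (squares), n = 3 arrays per group, filled where the adjusted p is under 0.05. Eif3e in Oct4-MO embryos is the 1 filled marker, and Eif3i lies above 0 in both knockdowns.

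Short stretches of the promoters show which fixed letters the subunits share, since most lay on the same side of 0. The 250 bases before the start were read from RefSeq (GRCm38.p6) for 7 of the 10 listed subunits, Eif3a, Eif3b, Eif3c, Eif3d, Eif3f, Eif3g and Eif3m, and searched on both strands. No promoter of Eif3e, Eif3h or Eif3i was among the sequences used. Eif3e, the subunit called lower in Oct4-MO embryos, was thus not searched. The octamer ATGCAAAT, the classical element bound by Oct4, was in 0 of the 7 and in 1.6% of 32851 promoters of the same length. With so low a share, 0 of the 7 says little about the subunits. The ETS-type letters CCGGAAG were in 4 of the 7 (Eif3c, Eif3d, Eif3g and Eif3m) and in 6.91% of all promoters. The windows below hold these letters or their reverse complement in capitals, 5′ to 3′ on the strand of the gene.
Eif3c: accttttcctCTTCCGGcgtcgtgcct
Eif3c: ttctttggtgCTTCCGGgaagtgacgc
Eif3d: ctgtgacacaCTTCCGGttgtgtctca
Eif3g: ggccgcggcaCCGGAAGcctcttctac
Eif3m: tgtggctgacCCGGAAGcggttgtgcg

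These windows lie at chr7:126566384-126566410 and chr7:126566418-126566444 (Eif3c), chr15:77970878-77970904 (Eif3d), chr9:20898618-20898644 (Eif3g) and chr2:105017066-105017092 (Eif3m), all on the minus strand. The match ends 28, 62, 64, 38 and 49 bases before the start. In Oct4-MO embryos the subunits with the letters that were measured, Eif3c, Eif3d and Eif3m, had log2 fold changes of -1.39, -1.47 and -0.74. Those without them, Eif3a, Eif3b and Eif3f, had -0.42, -1.33 and -0.62, so the ranges overlap. The GC box letters GGGCGG were in 4 of the 7 (Eif3a, Eif3c, Eif3d and Eif3m; 32.7% of all promoters) and CCAAT in 1 of the 7 (Eif3f; 33.8%). The E-box letters CACGTG were in 1 of the 7 (Eif3f; 6.02%), and AAGATGGC, a YY1-type element, in 0 of the 7 (1.56%). Eif3f carried the E-box between 2 copies of CCAAT, and no matches overlapped each other.
Eif3f: agatatgattCACGTGgtataaattt
Eif3f: ataaatttagCCAATcaaatttcta

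The Eif3f windows lie at chr7:108934337-108934362 and chr7:108934355-108934379 on the plus strand. A match is a run of letters and no evidence of binding, and no match says only that these letters are not in this window.

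In Ccna2-MO embryos the subunits split. Eif3d, Eif3e, Eif3m, Eif3c and Eif3a were 0.57 or more below uninjected embryos on the log2 scale with no overlap between groups, while Eif3b, Eif3f and Eif3i lay slightly above 0. Of 9 subunits 6 lay below 0, as did 48.4% of genes in the brighter part, with a median of -0.57 against 0.02 over genes in the brighter part. By limma 0 of the 9 were called at an adjusted p under 0.05, where 0.409% of all probe sets were called lower. At an unadjusted p under 0.05, 5 of the 9 were lower, beside 7.16% of all probe sets and 11.9% of genes in the brighter part. An unpaired t-statistic on each probe set likewise gave 0 after adjustment and 5 before it, with no share over all probe sets computed. That statistic is a part of the ranking in the methods of the study, which also used fold change and permutations and was not rerun. No overlap was seen in 5 of the 9, beside 12.2% of genes in the brighter part.

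Eif3d was the most reduced, at 29.4, 61.5 and 88.8 in Ccna2-MO embryos and 230, 168 and 157 in uninjected embryos. All injected pools lay below all uninjected ones, with a log2 fold change of -1.47 (SE 0.32, 95% interval -2.16 to -0.78, adjusted p = 0.056). It passed in 5 of 25 alternatives, among them the fit with no intensity trend in the variance (adjusted p = 0.049). The other probe set of Eif3d, in the dimmer part of the array, gave -0.17 with overlap.

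Eif3e read 779, 405 and 561 in Ccna2-MO embryos and 1288, 1098 and 1049 in uninjected embryos, with no overlap. The brightest probe set gave a log2 fold change of -1.0 (SE 0.23, adjusted p = 0.071). The other 2 with signal fell, 1439268_x_at with -1.33 (adjusted p = 0.025) and 1460432_a_at with -1.35 (adjusted p = 0.041), and were the 2 of 23 probe sets called. Neither passed with the pool as a block (adjusted p = 0.051 and 0.0607), where 1 probe set of Eif3c was called in their place, nor with only the 6 arrays of this comparison in the fit (adjusted p = 0.171 and 0.178). Without uninjected replicate 1 or 3 of the Ccna2 experiment, or without Ccna2-MO replicate 2, both also missed the threshold. Over the 12 fits that each left out 1 array, 1439268_x_at was called in 9 (adjusted p up to 0.12) and 1460432_a_at in only 3 (adjusted p up to 0.16).

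Eif3m read 112, 103 and 192 in Ccna2-MO embryos and 302, 293 and 243 in uninjected embryos, a log2 fold change of -1.0 (SE 0.33, adjusted p = 0.18). Eif3c read 2116, 1448 and 2560 in Ccna2-MO embryos and 3612, 2968 and 3466 in uninjected embryos, a log2 fold change of -0.74 (SE 0.23, adjusted p = 0.16). Its other 3 probe sets gave -0.91, -1.19 and -1.27 with adjusted p of 0.067 to 0.13, and with the block 1 of them, 1456374_x_at, passed (adjusted p = 0.049). Eif3a read 3471, 2754 and 3033 in Ccna2-MO embryos and 5269, 4158 and 4382 in uninjected embryos. All its injected pools were the lower ones here, unlike in Oct4-MO embryos, with a log2 fold change of -0.57 (SE 0.16, adjusted p = 0.11).

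The remaining subunits overlapped between the groups. Eif3h had a log2 fold change of -0.52 (SE 0.27, adjusted p = 0.43). Eif3b read 192, 210 and 243 in Ccna2-MO embryos and 208, 168 and 204 in uninjected embryos, with a log2 fold change of 0.14 (SE 0.40, 95% interval -0.72 to 1.0). Eif3f was at 0.06 (SE 0.24, 95% interval -0.46 to 0.58), and Eif3i at 0.22 (SE 0.15, 95% interval -0.10 to 0.54). None of these 4 passed.

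**Figure D3:**
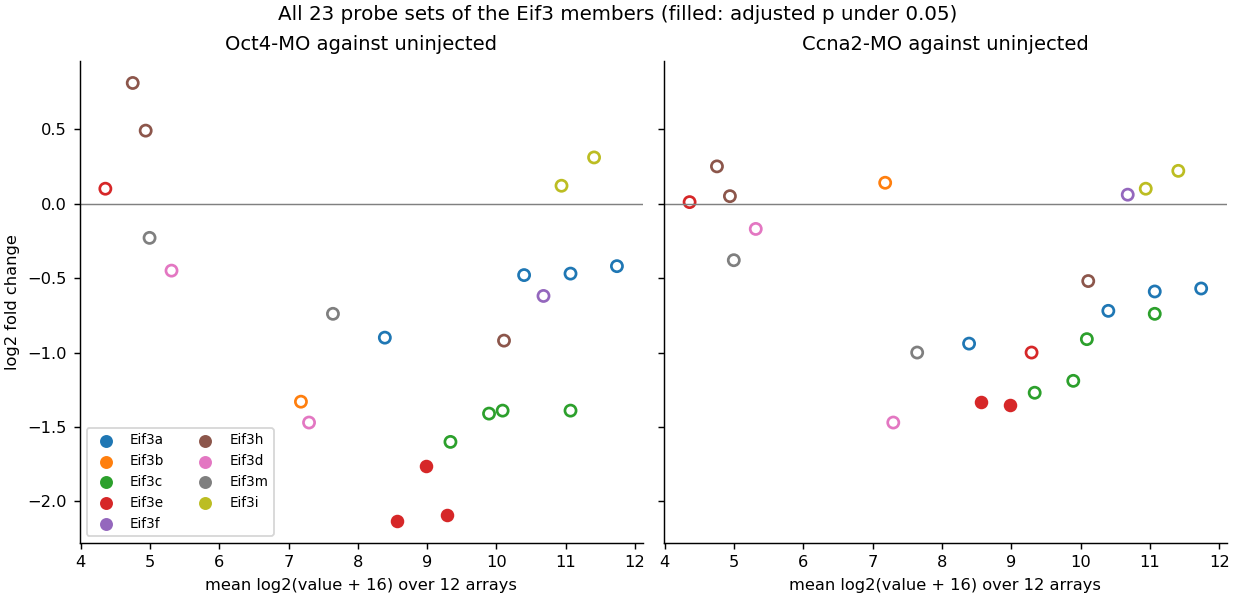
Log2 fold change (y axis) against mean log2(value + 16) over 12 arrays (x axis) for all 23 probe sets of 9 Eif3 subunits, in Oct4-MO embryos (left) and Ccna2-MO embryos (right), coloured by gene and filled where the adjusted p is under 0.05. The 5 probe sets at the left of each panel lie in the dimmer part of the array, and the filled ones, 3 on the left and 2 on the right, all belong to Eif3e.

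Eif3g, the RNA-binding subunit of the module with Eif3b and Eif3i, could be followed only through 1417718_at. This probe set is named Eif3s4, an old symbol of Eif3g, in the study's list of genes lower in Oct4-MO embryos, which was drawn from these arrays, so it is described with no test. It read 272, 95 and 221 in Oct4-MO embryos and 324, 249 and 396 in uninjected embryos, with overlap. It read 168, 116 and 364 in Ccna2-MO embryos and 465, 463 and 611 in uninjected embryos, with no overlap.

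The functional core and the peripheral subunits did not divide cleanly. The 6 subunits of the functional core (Eif3a, Eif3b, Eif3c, Eif3e, Eif3f and Eif3h) all lay below 0 in Oct4-MO embryos with a median log2 fold change of -1.13, and the 3 measured outside it (Eif3d, Eif3i and Eif3m) had -0.74. In Ccna2-MO embryos the medians were -0.55 and -1.0. Within the outside group Eif3d at -1.47 and Eif3i at 0.31 lay at opposite ends in Oct4-MO embryos. Split by the octamer, its 6 listed members had a median of -0.83 in Oct4-MO embryos and of -0.66 in Ccna2-MO embryos, and the 3 members outside it had -1.33 and 0.14. Split by presence in budding yeast, the 4 shared ones (Eif3a, Eif3b, Eif3c and Eif3i) had medians of -0.88 and -0.22, and the 5 others -0.92 and -1.0. These medians rest on 3 to 6 genes and were not tested.

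The other PCI subunits of the octamer, Eif3k and Eif3l, are not among the 10 and were not called. Eif3k read 345, 249 and 263 in Oct4-MO embryos and 411, 275 and 386 in uninjected embryos, a log2 fold change of -0.30 (SE 0.26, 95% interval -0.87 to 0.27). Eif3l had -0.34 (SE 0.46, 95% interval -1.34 to 0.65) in Oct4-MO embryos. In Ccna2-MO embryos the values were -0.19 for Eif3k and -0.09 for Eif3l, and the groups overlapped throughout on the brightest probe sets. The 3 probe sets annotated to Eif3j1 and Eif3j2 together were not used.

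The change in Oct4-MO embryos was set directly against the change in Ccna2-MO embryos, which the study used as its injection control on the arrays. By limma 0 of 9 subunits differed at an adjusted p under 0.05, and of all probe sets 0 were lower and 1, or 0.00223%, higher by this test. At an unadjusted p under 0.05, 2 subunits were lower in the Oct4 knockdown, beside 3.64% of all probe sets. With the pool as a block 0 passed after adjustment and 4 before it. No share over all probe sets was computed for these 4, so that count has nothing to be set against. Eif3b differed by -1.47 (SE 0.56, adjusted p = 0.69) and Eif3e by -1.09 (SE 0.33, 95% interval -1.80 to -0.38, adjusted p = 0.64). For Eif3d the difference was 0.00 with a 95% interval of -0.97 to 0.97, so changes that differ by nearly 2-fold either way are within its error. The larger change of Eif3e in Oct4-MO embryos is thus not shown to be particular to them.

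The 2 groups of uninjected embryos were also set against each other. By limma 0 of 9 subunits passed between uninjected embryos of the Ccna2 experiment and those of the Oct4 experiment, where 0.0289% of probe sets were called lower and 0.0623% higher. Before adjustment 1 was lower and 2 were higher, beside 5.57% and 5.95% of all probe sets. The unpaired t-statistic gave 0 after adjustment and 2 before it, with no share over all probe sets computed. Eif3d was lower in every pool of the Ccna2 experiment (230, 168 and 157) than in any of the Oct4 experiment (294, 352 and 340), a log2 fold change of -0.79 (SE 0.32, adjusted p = 0.37). Eif3a (0.35), Eif3h (0.60) and, outside the list, Eif3k (0.78) were higher, with adjusted p of 0.42, 0.43 and 0.28. The experiment and any batch it carries cannot be told apart, and each knockdown was compared with its own uninjected embryos.

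Within each group replicate 2 was the lowest pool for most subunits. It was the lowest in 5 of 9 among Oct4-MO pools and in 7 of 9 among their uninjected pools, and in 6 of 9 among Ccna2-MO pools and in 5 of 9 among their uninjected pools. Replicate 1 was the highest in 5 of 9 among Oct4-MO pools and in 4 of 9 among their uninjected pools, and in 4 of 9 among Ccna2-MO pools and in 6 of 9 among their uninjected pools. How often each replicate was the lowest or the highest over all genes was not computed. These counts are therefore not shown to be particular to the subunits. Same-numbered injected and uninjected pools were drawn from the same embryo pool. Taken over the 9 subunits, the median deviation from each gene's mean was -0.43, -0.68 and -0.56 in Oct4-MO embryos, against 0.52, -0.08 and 0.38 in uninjected embryos, so the groups stood apart. It was 0.03, -0.55 and 0.06 in Ccna2-MO embryos, against 0.65, 0.28 and 0.38 in uninjected embryos, again with no overlap. The median of the brighter part of the array itself moved by -0.063 to 0.036.

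Over the 12 arrays the log2 values of 2 subunits at a time correlated with a median Pearson r of 0.48 over 36 pairs, 27 of them positive. Eif3c and Eif3e were the closest pair, at 0.92. Eif3i correlated negatively with each of the other 8, at -0.71 to -0.23. All pairs share the arrays and their groups, and once each group's mean was removed the median r was 0.26, with Eif3c and Eif3f at 0.85 as the closest pair. With the group means removed the pairs with Eif3i had a median r of -0.08, and 3 of the 8 were positive (Eif3a 0.18, Eif3b 0.12 and Eif3e 0.35). Eif3d then correlated negatively with 6 of the other 8.

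The 5 genes whose profile over the 12 arrays was most like the mean profile of the subunits, of 11408 compared, were Iqub (r = 0.972), Eif4e (0.967), Trim43a (0.966), Sirt1 (0.966) and Pdia3 (0.963). Eif4e is the cap-binding protein and Trim43a a gene switched on with the embryonic genome. Their log2 fold changes in Oct4-MO embryos were -1.66, -0.57, -1.12, -1.65 and -0.88, and Trim43a was the 1 of them that passed (adjusted p = 0.022). In Ccna2-MO embryos they were -0.89, -0.24, -0.38, -1.11 and -0.52, and 0 passed. These genes were picked on the same 12 arrays with the group means left in. Their lower values in both knockdowns thus follow from the choice and are no separate result.

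Genes switched on at the 2-cell stage were read beside Eif3. Of a list of 9 such genes 5 were measured (Sp110, Tcstv1, Tcstv3, Trim43a and Zfp352), and their summed level was 9061 to 11540 in Oct4-MO embryos and 11680 to 12950 in uninjected embryos, with no overlap. The 5 genes did not run one way. Mean Trim43a was 1650 in Oct4-MO embryos and 3555 in uninjected embryos, and mean Sp110 was 769 in Oct4-MO embryos and 1372 in uninjected embryos. The other 3 had higher means in Oct4-MO embryos, as Tcstv1 with 2856 in Oct4-MO embryos and 2348 in uninjected embryos. The sum was 11770 to 13170 in Ccna2-MO embryos and 11740 to 14450 in uninjected embryos, with overlap. The egg list summed to 13480 to 15010 in Oct4-MO embryos and 14500 to 14850 in uninjected embryos. The 3′ to 5′ ratio of Gapdh, a sign of RNA integrity and of amplification, was 2.80 to 5.94 in Oct4-MO embryos and 2.97 to 3.84 in uninjected embryos. It was 2.36 to 3.59 in Ccna2-MO embryos and 3.06 to 3.33 in their uninjected embryos. The same ratio of Actb was 0.308 to 0.824 in Oct4-MO embryos and 0.448 to 0.803 in uninjected embryos. For Ccna2-MO embryos it was 0.442 to 0.578, against 0.544 to 0.733 in uninjected embryos. The part of these values in the Eif3 results was not tested.

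The partners of Eif3 in initiation had medians nearer to 0, a difference that was not tested. Of 27 genes listed for the preinitiation complex and the cap complex 24 were measured, and 0 passed in either knockdown. The median log2 fold change was -0.23 in Oct4-MO embryos, with 18 below 0, and -0.19 in Ccna2-MO embryos, with 16 below 0. At an unadjusted p under 0.05, 3 of 24 were lower in Oct4-MO embryos, beside 8.64% of genes in the brighter part, and 6 of 24 in Ccna2-MO embryos, beside 11.9%. In 8 of 24 every Oct4-MO array read below every uninjected array, beside 12.5% of genes, and in 2 of 24 every Ccna2-MO array did, beside 12.2%. The smallest p in Oct4-MO embryos belonged to Eif4e, the cap-binding protein (-0.57, SE 0.11, adjusted p = 0.09), and Eif2s3x, a subunit of the factor that carries the initiator tRNA (-0.72, SE 0.19, adjusted p = 0.20). In Ccna2-MO embryos they belonged to Pabpc1, the poly(A)-binding protein (-0.81, SE 0.26, adjusted p = 0.17), and Eif1a, which helps scanning (-1.12, SE 0.38, adjusted p = 0.19). The unpaired t-statistic was not run on this list.

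The complexes that share the PCI and MPN folds gave 0 called genes in either knockdown. The 8 of 9 measured subunits of the COP9 signalosome had a median log2 fold change of -0.03 in Oct4-MO embryos and of -0.08 in Ccna2-MO embryos, and the lowest was Cops3 at -0.39 in Oct4-MO embryos. Their smallest p was on the higher side, with Cops7b at 1.03 (SE 0.27, adjusted p = 0.21) and Cops8 at 0.45 (SE 0.22, adjusted p = 0.58) in Oct4-MO embryos. In Ccna2-MO embryos Cops2 was at 1.0 (SE 0.32, adjusted p = 0.17) and Cops7b at 0.78 (SE 0.27, adjusted p = 0.21). Before adjustment 1 was higher in Oct4-MO embryos, beside 5.45% of genes in the brighter part, 2 were higher in Ccna2-MO embryos, beside 10.7%, and 0 were lower in either. Of the proteasome lid 9 of 10 listed symbols were measured, with medians of -0.30 and -0.45. In each knockdown 8 of these 9 lay below 0, beside 51.8% and 48.4% of genes in the brighter part. Of the 9 Eif3 subunits 8 and 6 did, so values mostly below 0 were not particular to Eif3. Of the lid 1 was lower before adjustment in Oct4-MO embryos, beside 8.64% of genes. In Ccna2-MO embryos 2 were lower and 1 higher, beside 11.9% and 10.7%. There Psmd14, the deubiquitinase of the lid, was at -0.86 (adjusted p = 0.41) and Psmd3 at 0.47 (adjusted p = 0.62) in Oct4-MO embryos, and Psmd7 was at -1.14 (adjusted p = 0.12) and Psmd3 at 0.83 (adjusted p = 0.14) in Ccna2-MO embryos. These lists were described by counts and medians and were not tested against the Eif3 subunits.

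**Figure D4:**
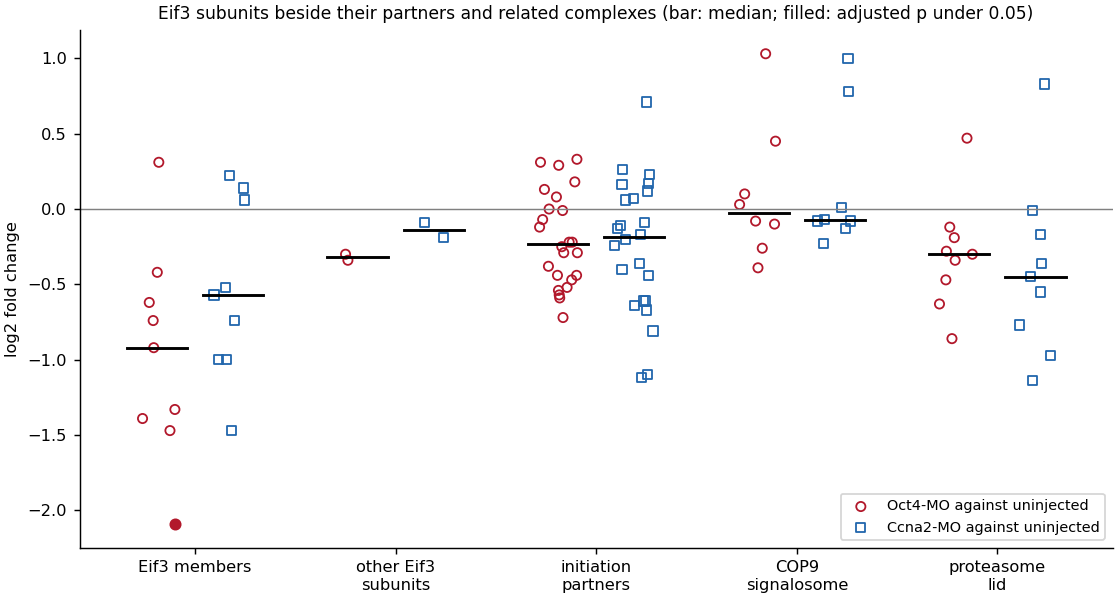
Log2 fold change (y axis) of 9 Eif3 members, 2 other Eif3 subunits, 24 initiation partners, 8 COP9 signalosome subunits and 9 proteasome lid subunits, with Oct4-MO against uninjected as circles and Ccna2-MO against uninjected as squares, a bar at each median and filled markers where the adjusted p is under 0.05. The median of the Eif3 members lies at -0.92 and -0.57, and that of the partners at -0.23 and -0.19.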

How the data were processed

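The authors normalized 12 Affymetrix Mouse Genome 430 2.0 arrays with dChip and deposited 1 linear intensity per probe set; the sources used here give neither its version nor its model options. Of 45001 probe sets 64 control probe sets were left out. Names came from the platform annotation (34849 with 1 symbol, 928 with several and not named, 9160 with none). Suffixes _x_at, _s_at and _a_at mark probes that can match other transcripts.

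Log2(value + 16) was fitted with limma 3.58.1 in R 4.3.3 as 4 group means over 12 arrays, with an intensity trend in the variance, and p-values were adjusted (Benjamini-Hochberg) over 44937 probe sets, with calls under 0.05. The fit was tested on simulated data. The brighter part is the 22469 probe sets at or above the median of mean log2 value. Between 39.3 and 42.7% of probe sets read under 16 on an array, and signal over background and 3 arrays per group limit the precision. Every listed subunit is named; of each other list, every gene that passed and those with the 2 smallest p per knockdown; and the 5 most alike genes. Members and lists were chosen with earlier results of these data known. By the labels, same-numbered injected and uninjected pools share an embryo pool; their deviations from group means correlated at 0.105, 0.0613 and -1.56e-04 (Oct4) and -0.015, 0.111 and 0.15 (Ccna2). Promoters came from RefSeq (GRCm38.p6) with Python 3.11.15. The alternatives are given with the limits.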

Additional observations from a re-analysis of the deposited data

How the results depend on the processing

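Eif3e kept its direction in all 25 alternatives in Oct4-MO embryos (-2.23 to -1.47) and its call in 20. The count of subunits called in Oct4-MO embryos, 1, became 3 with all 6 uninjected arrays as controls (Eif3c, Eif3e and Eif3h) or with array weights (Eif3c, Eif3d and Eif3e), while the probe sets called lower on the whole array, 20, became 329 and 186. It became 2 in the brighter part alone, after median centring, or with all probe sets of a gene averaged (Eif3c and Eif3e each time). In the first 2 of these fits 67 and 23 probe sets were called lower. It became 0 with only the 6 arrays of the comparison or an unpaired t-statistic per probe set, and ran from 0 to 2 without single arrays. The t-statistic gave 5 before adjustment, with no share over all probe sets computed. In Ccna2-MO embryos the count, 0, became 2 in the brighter part alone (Eif3d and Eif3e, with 407 probe sets called lower there, against 184 over all). It became 1 (Eif3d) with all 6 uninjected arrays or no intensity trend, where 211 and 152 probe sets were called lower. It was also 1 with all probe sets of a gene averaged (Eif3e), and ran from 0 to 1 without single arrays. Averaging only a gene's brighter probe sets, chosen after seeing the data, gave 3 in each (Eif3c, Eif3d and Eif3e). Calls over all genes in the averaged fits are not given here. With the replicate block the counts were 1 for Oct4-MO, 0 for Ccna2-MO and 0 for the difference, so it changed no subunit's call; no block could be fitted for the uninjected groups. The difference and the uninjected comparison stayed at 0 without single arrays. The median log2 fold change in Oct4-MO embryos was -0.62 with all probe sets of a gene averaged, and without single arrays it ran from -1.11 to -0.69, against -0.80 to -0.47 in Ccna2-MO embryos. The sign turned for Eif3h in Oct4-MO embryos with the mean of its probe sets (0.13), which takes in 2 near background, and for Eif3f in Ccna2-MO embryos with all 6 uninjected arrays (-0.16) and without Ccna2-MO replicate 1 (-0.13) or 3 (-0.05), beside 0.35 without replicate 2. The cause of the other changes was not tested. Dim signal limits Eif3b and Eif3d, whose SE of 0.40 and 0.32 hide small changes.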
